A study of Mus musculus with 6 samples.

Results

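The autophagy genes described here are 40 genes that act in autophagy, the process by which cells enclose part of their own cytoplasm in a membrane and digest it in lysosomes. They were chosen by name, with no measured value in the rule, but with earlier results of these data known. Of the 40, 39 were matched to a gene on the array, out of 19938 genes tested. The cargo receptor gene Optn was not matched to a row with exactly 1 gene symbol and is not analysed here. Signals came from Affymetrix Mouse Gene 1.0 ST arrays of KSL cells, the cKit+ Sca1+ fraction of bone marrow without lineage markers, which holds haematopoietic stem cells and early progenitors. The first group was 3 samples labelled Runx1;Runx3 double knockout (DKO), with the genotype Runx1fl/fl;Runx3fl/fl;Mx1-Cre+. The second was 3 samples of wild-type littermates (WT), with the genotype Runx1fl/fl;Runx3fl/fl;Mx1-Cre-. Both were on C57BL/6, to which the alleles had been backcrossed for 3 generations or more. In Mx1-Cre mice an interferon-responsive promoter drives the recombinase, which is active in many cell types. The same protocol stands beside both genotypes: mice aged 4 weeks received 600 µg of the interferon inducer pIpC on 7 alternate days. The sample descriptions call the cells untreated, and no interval between injection and harvest is stated. WT mice carried the floxed alleles but no Cre, so what the lost genes do and what Cre itself does cannot be told apart. The design text pools 3 mice into each WT sample, does not state pooling for the DKO samples and counts 6 mice in all, so whether a value of n = 3 stands for single mice is unsettled.

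Autophagy starts when the ULK kinase complex is released from inhibition by the kinase mTOR. A class III phosphoinositide 3-kinase complex then marks the membrane on which the autophagosome grows, ATG9 vesicles and the lipid transfer protein ATG2 supply lipid, and a ubiquitin-like conjugation system attaches ATG8 proteins such as LC3 to the membrane, where cargo receptors bind them. The transcription factors TFEB, TFE3 and FoxO are known activators of many of these genes, and autophagy is known to be needed for the upkeep of mouse haematopoietic stem cells.

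The 6 arrays had nearly equal distributions, with medians of 5.88 to 5.91 and lower quartiles of 4.63 to 4.66 on the log2 scale, and their number limits the precision of every value. Pearson correlations between arrays over all 19938 genes were 0.993 to 0.995 within DKO, 0.989 to 0.991 within WT and 0.976 to 0.980 between the groups. Runx1 had signals of 9.22, 9.37 and 9.28 in the DKO-labelled samples, against 8.49, 8.53 and 8.38 in WT, so its signal was higher where the label names a loss. Runx3 had 7.40, 7.40 and 7.34 in DKO-labelled samples, against 7.53, 7.59 and 7.47 in WT, all lower in DKO without passing (difference -0.15, limma adjusted p = 0.253). A signal averaged along a whole gene cannot check the loss of single exons, so DKO means labelled DKO throughout and every direction is that of the labels. Kit, a marker of the sort, had 10.35, 10.72 and 10.38 in DKO, against 9.78, 9.63 and 9.85 in WT (0.73, limma adjusted p = 0.00289), and Sca1, encoded by Ly6a, was not matched. Ptprc, a marker of blood cells in general that the sort did not use, differed by 0.76 (adjusted p = 0.000459), and both differences exceed that of any of the 39 autophagy genes. Among mast cell and basophil markers (6 of 6 measured, list means of 7.09 to 7.15 in DKO and 6.09 to 6.40 in WT) Cpa3, Ms4a2 and Hdc rose by 3.43, 2.24 and 1.27, whereas Mcpt8 and Fcer1a fell by 1.32 and 0.68. Fcer1a was dim, under the lower quartile on every array but WT replicate 2 (5.08), and Gata2 did not pass (0.24, limma adjusted p = 0.16). Among megakaryocyte and platelet markers (5 of 6, 7.19 to 7.94 in DKO and 6.78 to 7.07 in WT) Gp5, Itga2b and Gp9 rose by 2.80, 0.92 and 0.39, while Pf4 and Ppbp, at -0.51 and -0.44, did not pass. Of 3 measured erythroid markers of 6 (6.10 to 6.62 in DKO and 6.88 to 7.30 in WT) Car1 and Klf1 fell by 2.02 and 0.54, and Epor was at -0.037 with overlapping groups. Of 6 neutrophil markers (4.93 to 5.09 in DKO and 5.15 to 5.73 in WT) 0 passed in limma and 3 had an unadjusted p under 0.05. The list means of the groups overlapped for the B cell (4 of 5), T and NK cell (5 of 6), macrophage and dendritic cell (6 of 6) and endothelial and stromal markers (6 of 6), among which Pdgfrb alone passed (-0.66, limma adjusted p = 0.031). Of the markers, Ms4a1, Cd3g, Ncr1, Ltf, Ly6g, Adgre1 and Lepr had signals under the lower quartile on all 6 arrays. Others of their lists did not, with Pecam1, Cd68, Cd79b, S100a9 and Cd3e at percentiles 86.6, 75.3, 72.3, 63.1 and 52.9 of mean signal over all genes. The part of these cell types in the differences of the autophagy genes was not tested, and in such bulk samples a shift in the kinds of cells and a change of RNA per cell cannot be told apart.

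The comparison asks which transcripts of the autophagy machinery differ between DKO and WT cells. Of the 39 measured genes, 7 were higher in DKO, 1 was lower and 31 did not pass the threshold, an adjusted p of 0.05 from limma with Benjamini-Hochberg adjustment over all 19938 genes. The rises were those of Foxo1, Rb1cc1, Map1lc3b, Uvrag, Atg4c, Pik3c3 and Ulk2, between 1.29-fold and 1.64-fold, and the fall was that of Map1lc3a, by 0.41 on the log2 scale. Among all genes, 9.71% were called higher and 7.69% lower, against 17.9% and 2.56% of the autophagy genes. Their median difference was 0.16 on the log2 scale, beside -0.040 over all genes, and 28 of 39 differences were positive. All 3 DKO values lay above all 3 WT values for 12 of the 39 (16.2% of all genes) and below them for 4 (19.5% of all genes). At an unadjusted p under 0.05 there were 15 autophagy genes (30.9% of all genes). The autophagy genes were longer and had stronger signals than most, with a median gene span of 35986 bases against 17740 over all genes and a median signal percentile of 71.7, and no value of theirs lay below the lower quartile of its array. With a trend of the difference over gene span and signal removed, 4 autophagy genes were higher and 2 lower (7.49% and 7.62% of all genes), and their median was 0.083. Without the dimmest 50% of genes, 34 autophagy genes were left, of which 9 were higher and 2 lower (20% and 12.7% of all genes left). With quantile normalisation 6 were higher and 2 lower (7.73% and 8.98% of all genes). Without DKO replicate 1, 4 were higher and 0 lower (6.98% and 4.23% of all genes). Without DKO replicate 2, 4 were higher and 1 lower (6.79% and 4.39%), and without DKO replicate 3, 4 were higher and 0 lower (6.27% and 4.28%).

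**Figure D1:**
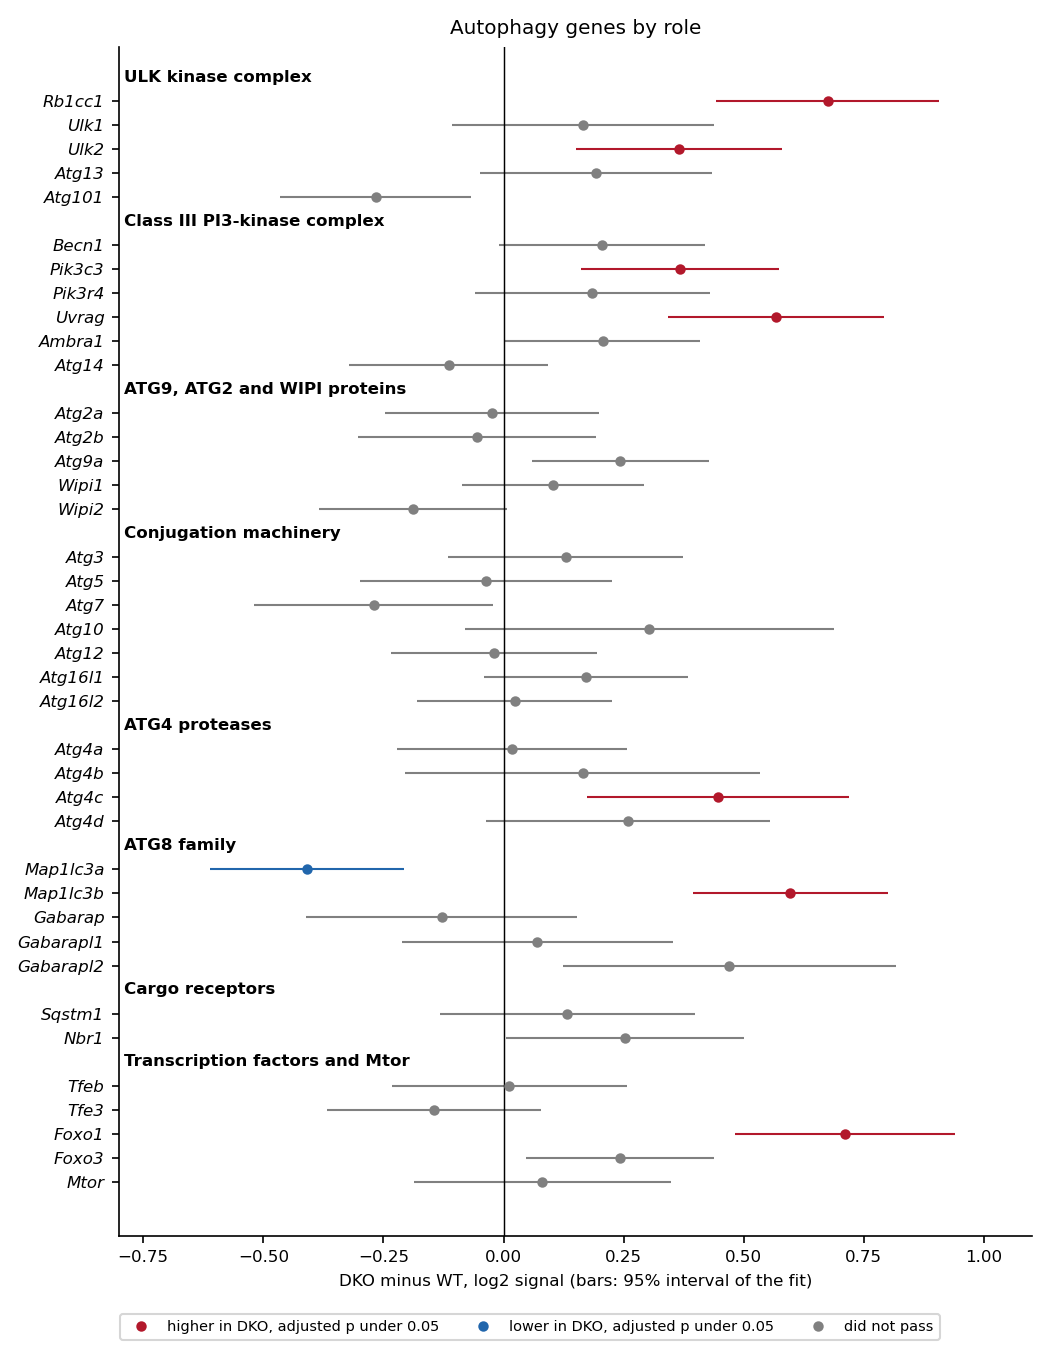
Differences between DKO and WT in log2 signal (horizontal axis) for the 39 measured autophagy genes, grouped by role from top to bottom, where points are the fitted differences and bars their 95% intervals (n = 3 samples per group). The 7 genes in red and the 1 gene in blue passed the threshold, and the differences run from -0.41 for Map1lc3a to 0.71 for Foxo1.

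Promoter windows are shown for 4 of the genes that rose: Uvrag and Atg4c, which have a window with the RUNX core motif, and Foxo1 and Map1lc3b, which have windows without it and were called under every alternative tried. Runx proteins are known to bind the core TGTGGT, TFEB and TFE3 an element centred on CACGTG, and FoxO proteins GTAAACA. Each window runs from 250 bases before to 50 bases after an annotated start (RefSeq, GRCm38.p6), is written 5′ to 3′ on the gene's strand, and has matches on either strand in capitals. The windows are those of Uvrag at chr7:99141095-99141394 (minus strand), Atg4c at chr4:99193684-99193983 (plus strand), Foxo1 at chr3:52268087-52268386 (plus strand) and Map1lc3b at chr8:121590188-121590487 (plus strand).
Uvrag: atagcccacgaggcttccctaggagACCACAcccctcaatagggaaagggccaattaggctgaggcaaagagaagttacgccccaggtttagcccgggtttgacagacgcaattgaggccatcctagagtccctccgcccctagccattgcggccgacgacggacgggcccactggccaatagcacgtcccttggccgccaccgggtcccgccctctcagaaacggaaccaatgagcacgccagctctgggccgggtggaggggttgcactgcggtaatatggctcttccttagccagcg
Atg4c: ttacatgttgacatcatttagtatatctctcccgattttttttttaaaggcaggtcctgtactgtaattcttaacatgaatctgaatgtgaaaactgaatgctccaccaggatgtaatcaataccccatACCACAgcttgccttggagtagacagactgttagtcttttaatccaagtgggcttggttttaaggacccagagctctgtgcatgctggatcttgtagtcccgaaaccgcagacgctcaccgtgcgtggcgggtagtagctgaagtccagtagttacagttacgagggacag
Foxo1: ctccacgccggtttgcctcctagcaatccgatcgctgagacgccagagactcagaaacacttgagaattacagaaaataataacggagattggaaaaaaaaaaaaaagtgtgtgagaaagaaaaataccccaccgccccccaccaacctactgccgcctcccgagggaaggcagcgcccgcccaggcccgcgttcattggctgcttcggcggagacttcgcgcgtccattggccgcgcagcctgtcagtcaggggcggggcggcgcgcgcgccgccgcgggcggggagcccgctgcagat
Map1lc3b: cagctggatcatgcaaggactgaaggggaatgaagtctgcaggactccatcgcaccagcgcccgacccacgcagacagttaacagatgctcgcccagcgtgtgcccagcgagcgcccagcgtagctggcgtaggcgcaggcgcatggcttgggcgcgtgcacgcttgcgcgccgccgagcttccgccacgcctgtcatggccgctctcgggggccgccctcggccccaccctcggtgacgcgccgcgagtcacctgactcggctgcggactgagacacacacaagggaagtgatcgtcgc
In Uvrag and in Atg4c the capitals mark the RUNX core as read on the opposite strand. Atg4c has a second window, at chr4:99193897-99194196, which overlaps the one shown and lacks the motif. Windows were found for 33 of the 39 genes, and none for Rb1cc1, Pik3c3, Map1lc3a, Becn1, Atg12 and Atg16l1. TGTGGT or its reverse complement was in 9 of 39 windows (23.1%), one window each of 9 genes, against 16.8% of all 32851 windows. Of those 9 genes 2 rose, and of the 24 genes with no window that holds it 3 rose, beside 9.71% of all genes. The median differences of these sets were 0.24 and 0.075. The same split over all genes is not given here, so no link of the motif with the differences can be read from it. CACGTG was in 4 windows (10.3%, against 7.15% of all), those of Atg3, Atg5, Atg7 and Atg14, and 0 of these 4 genes passed. GTAAACA was in 0 of the 39 windows, against 3.65% of all. These are matches of letters, and binding was not measured here.

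The ULK kinase complex receives the starvation signal. Rb1cc1, which encodes its scaffold FIP200, had log2 signals of 8.58, 8.88 and 8.60 in DKO, against 7.93, 8.06 and 8.05 in WT. All DKO arrays were above all WT arrays, and the 1.60-fold rise (a log2 difference of 0.67 with SE 0.10, limma adjusted p = 0.00238) was called under each of 17 alternatives, at 0.48 with the trend over gene span and signal taken out. Ulk2, one of the kinases, had 7.25, 7.33 and 7.38 in DKO, against 7.10, 6.90 and 6.87 in WT. The groups did not overlap, with a difference of 0.36 (SE 0.10, limma adjusted p = 0.0277). That call was lost in 7 of 17 alternatives: with the trend removed (0.24, adjusted p = 0.115), with the replicate number as a block (0.0569), and without any one of DKO replicates 1 (0.0588), 2 (0.08) and 3 (0.103) or WT replicates 2 (0.067) and 3 (0.0851). Ulk1, its paralog, had 6.41, 6.66 and 6.52 in DKO, against 6.51, 6.12 and 6.46 in WT, overlapping values with a difference of 0.17 (95% interval -0.11 to 0.44). Atg13, a regulatory subunit, differed by 0.19 with overlapping groups (adjusted p = 0.265). Atg101, which binds Atg13, had 7.64, 7.56 and 7.68 in DKO, against 7.82, 7.87 and 7.99 in WT. Its DKO values lay below all WT values, and the difference of -0.27 missed the threshold (adjusted p = 0.0686) but passed with quantile normalisation (-0.35, 0.0291), cyclic loess (-0.34, 0.0286) and without the dimmest 50% of genes (0.0425), in a range of 0.0286 to 0.194.

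**Figure D2:**
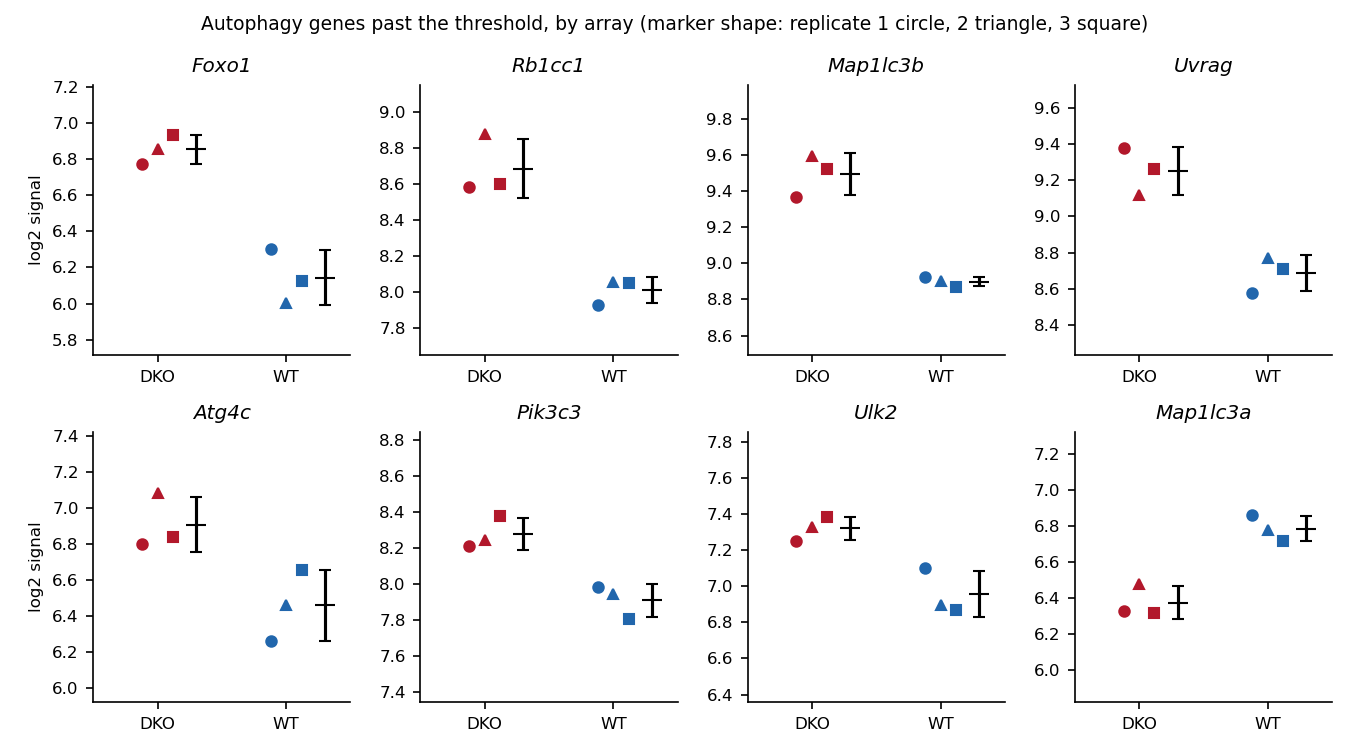
Log2 signal (vertical axis, spanning 1.5 units in every panel and not starting at 0) of the 8 autophagy genes past the threshold, with DKO arrays in red on the left and WT arrays in blue on the right of each panel. Marker shapes stand for replicates, black bars for the mean and SD of 3 samples, and in every panel the DKO and WT values do not overlap.

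In the class III phosphoinositide 3-kinase complex, 2 of 6 genes rose and 4 did not pass, beside 9.71% of all genes called higher. Uvrag, a Beclin 1 partner that acts in autophagosome and endosome maturation, had 9.38, 9.12 and 9.26 in DKO, against 8.58, 8.77 and 8.71 in WT. The arrays of the groups were apart, and the 1.48-fold rise (0.57, SE 0.10, limma adjusted p = 0.00461) was called in 16 of 17 alternatives, but not with the trend over gene span and signal taken out (0.24, adjusted p = 0.156). At 254426 bases Uvrag was the second longest of the 39 genes after Atg10. Pik3c3, the catalytic subunit Vps34, had 8.21, 8.24 and 8.38 in DKO, against 7.98, 7.94 and 7.81 in WT. These values also did not overlap, and the difference was 0.37 (SE 0.09, limma adjusted p = 0.0235). The Pik3c3 call held in 9 of 17 alternatives. It was lost with quantile normalisation (0.26, adjusted p = 0.0726), cyclic loess (0.27, 0.0629), the block (0.0535), the trend removed (0.17, 0.243) and without DKO replicate 1 (0.0515), 2 (0.0592) or 3 (0.0952) or WT replicate 3 (0.0736). Becn1, which encodes Beclin 1, had 7.52, 7.72 and 7.61 in DKO, against 7.41, 7.52 and 7.31 in WT. Its highest WT value lay just below its lowest DKO value, and the difference of 0.20 did not pass (adjusted p = 0.181). Ambra1, a Beclin 1 activator, differed by 0.21 with no overlap (adjusted p = 0.154) and by 0.054 with the trend removed. Pik3r4, the regulatory subunit Vps15, and Atg14, the subunit that directs the complex to autophagosome formation, differed by 0.18 and -0.11 with overlapping groups (adjusted p = 0.291 and 0.448).

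Of the 5 genes for ATG9, ATG2 and WIPI proteins, 0 passed in limma, beside 17.4% of all genes, and Atg9a alone had an unadjusted p under 0.05. Atg9a, the membrane protein of the vesicles that seed autophagosomes, had 6.58, 6.58 and 6.61 in DKO, against 6.38, 6.38 and 6.28 in WT. Its groups were apart by more than their spread, with a difference of 0.24 (SE 0.08, limma adjusted p = 0.0712). It passed with cyclic loess (0.27, adjusted p = 0.0471), without the dimmest 50% of genes (0.0428) and with the trend removed (0.28, 0.0449), in a range of 0.0428 to 0.185. Wipi2, which recruits the conjugation machinery, had 6.97, 6.94 and 6.92 in DKO, against 7.15, 7.03 and 7.22 in WT, all lower in DKO without passing (-0.19, adjusted p = 0.178). Wipi1, its paralog, differed by 0.10 with overlapping values (adjusted p = 0.453). The lipid transfer genes Atg2a and Atg2b differed by -0.024 and -0.055 (95% intervals -0.25 to 0.20 and -0.30 to 0.19). A second Atg2b row on the array had 6.25, 6.20 and 5.98 in DKO, against 5.79, 5.93 and 5.84 in WT, a difference of 0.29 (adjusted p = 0.0733), so the rows of this gene disagree in sign.

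The conjugation machinery gave 0 calls among 7 genes in limma, beside 17.4% of all genes. Among the 7, Atg7 alone had an unadjusted p under 0.05 and was called with the trend over gene span and signal taken out. Atg7, the E1-like enzyme whose deletion is a standard way of blocking autophagy in mice, had 7.02, 6.82 and 6.91 in DKO, against 7.40, 7.07 and 7.09 in WT. Every DKO array was below every WT array, and the difference of -0.27 (SE 0.11) had an adjusted p of 0.132. With the trend removed it was -0.41 (adjusted p = 0.0323, in a range of 0.0323 to 0.319). Atg10, an E2-like enzyme, had 7.73, 7.76 and 7.66 in DKO, against 7.56, 6.96 and 7.72 in WT. The groups overlapped, and the difference of 0.30 (adjusted p = 0.268) was 0.075 without WT replicate 2, the lowest array. Atg3, the E2-like enzyme for ATG8 proteins, had 8.74, 8.74 and 8.69 in DKO, against 8.40, 8.80 and 8.58 in WT. The difference of 0.13 was within the WT spread (adjusted p = 0.469). Atg16l1, which places the conjugation complex on the membrane, differed by 0.17 (adjusted p = 0.258). Atg5 and Atg12, which form a conjugate with each other, and Atg16l2, a paralog of Atg16l1, differed by -0.036, -0.020 and 0.023, with 95% intervals inside -0.30 to 0.23.

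ATG4 proteases cut ATG8 proteins before lipidation and release them afterwards. Atg4c had 6.80, 7.08 and 6.84 in DKO, against 6.26, 6.46 and 6.65 in WT. The 1.36-fold rise (0.45, SE 0.12, limma adjusted p = 0.0326) left no overlap between the groups. It was lost in 6 of 17 alternatives: with the trend removed (0.37, adjusted p = 0.07) and without DKO replicate 1 (0.0576), 2 (0.115) or 3 (0.0731) or WT replicate 1 (0.0827) or 2 (0.0642). Atg4d had 6.27, 6.30 and 6.13 in DKO, against 5.70, 6.23 and 6.00 in WT, overlapping values with a difference of 0.26 (adjusted p = 0.217). Atg4b, the main protease for LC3, differed by 0.16 (95% interval -0.21 to 0.53), and its values of 5.57 to 6.07 in DKO and 5.41 to 5.98 in WT overlapped. Atg4a differed by 0.017 (95% interval -0.22 to 0.26), and a second row of the gene by 0.082. The probe set number of the chosen row (10500802) lies among those of chromosome 3 genes, whereas Atg4a is on chromosome X.

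Of the 5 ATG8 family genes 1 rose and 1 fell, beside 9.71% and 7.69% of all genes. Map1lc3b, which encodes LC3B, had 9.37, 9.59 and 9.52 in DKO, against 8.92, 8.90 and 8.87 in WT. It rose 1.51-fold with no overlap (0.60, SE 0.09, limma adjusted p = 0.00227), and the rise was called under each of 17 alternatives. A second row named Map1lc3b gave 0.68 (8.99, 9.26 and 9.18 in DKO, against 8.48, 8.46 and 8.45 in WT). The probe set number of that second row (10419354) lies among those of chromosome 14 genes, whereas Map1lc3b is on chromosome 8. It enters the alternatives that average a gene's rows or take the more variable row. The annotation lists the same RefSeq transcript for both rows, so it is uncertain how near-identical copies share the signal. Map1lc3a, which encodes LC3A, had 6.33, 6.48 and 6.32 in DKO, against 6.86, 6.78 and 6.72 in WT. All DKO values were below all WT values, and Map1lc3a fell by 0.41 in log2 signal (SE 0.09, limma adjusted p = 0.0128). Its call was lost without DKO replicate 1 (adjusted p = 0.0558) or 3 (0.0571), the highest values in a range that starts at 0.0076. Gabarapl2, which encodes GATE-16, had 7.74, 7.93 and 7.75 in DKO, against 7.47, 7.59 and 6.95 in WT. It differed by 0.47 with no overlap but missed the threshold (SE 0.15, limma adjusted p = 0.0662), with WT replicate 3 far below the other WT arrays. Gabarapl2 passed without WT replicate 2 (0.59, adjusted p = 0.0321), with the block (0.0358), with array weights (0.0461) and without the dimmest 50% of genes (0.0464), was at 0.28 without WT replicate 3, and was at 0.20 in its second row (adjusted p = 0.231). The probe set number of the chosen row (10528546) lies among those of chromosome 5 genes. That of the second row (10575616) lies among those of chromosome 8, where Gabarapl2 is. What else the chosen row may read was not checked. Gabarap had 10.21, 10.14 and 10.11 in DKO, against 10.56, 10.23 and 10.05 in WT, and Gabarapl1 7.94, 7.93 and 7.90 in DKO, against 7.97, 7.56 and 8.04 in WT. Both sets overlapped, with differences of -0.13 and 0.070 (adjusted p = 0.537 and 0.751).

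Of the measured cargo receptors, which link ubiquitinated cargo to ATG8 proteins, 0 of 2 passed in limma, beside 17.4% of all genes. Nbr1 had an unadjusted p under 0.05. Sqstm1, which encodes p62, a protein degraded by autophagy, had 7.54, 7.65 and 7.36 in DKO, against 7.60, 7.27 and 7.28 in WT. The arrays overlapped, with a difference of 0.13 (95% interval -0.13 to 0.40). Nbr1, a related receptor, had 7.55, 7.67 and 7.38 in DKO, against 7.42, 7.13 and 7.29 in WT. WT replicate 1 lay above the lowest DKO value, and the difference was 0.25 (adjusted p = 0.153).

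Among the regulators, Foxo1 rose and the MiT factors did not pass. Foxo1, a transcription factor that is held in the cytoplasm by Akt signalling, had 6.77, 6.86 and 6.94 in DKO, against 6.30, 6.00 and 6.13 in WT. The 1.64-fold rise had the largest difference of the 39 genes (0.71, SE 0.10, limma adjusted p = 0.00172), with no overlap, and ran from 0.64 to 0.79 over 17 alternatives, all of them past the threshold. Foxo3, its paralog and a known regulator of stem cell quiescence, had 7.81, 7.97 and 7.83 in DKO, against 7.67, 7.63 and 7.57 in WT. All DKO values were higher, but the difference of 0.24 (SE 0.09) missed the threshold (limma adjusted p = 0.089) and was 0.051 with the trend removed (0.756). Tfeb had 5.52, 5.18 and 5.30 in DKO, against 5.33, 5.21 and 5.42 in WT, and Tfe3 5.46, 5.26 and 5.41 in DKO, against 5.50, 5.42 and 5.65 in WT. These arrays overlapped, with differences of 0.012 (95% interval -0.23 to 0.26) and -0.14 (-0.37 to 0.078). Mtor, the kinase that restrains autophagy when nutrients are present, had 6.99, 7.08 and 7.09 in DKO, against 6.71, 7.14 and 7.06 in WT. WT replicate 2 was the highest of all 6 arrays, and the difference was 0.081 (95% interval -0.19 to 0.35).

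To set paralogs side by side, 10 pairs, chosen after their values were seen, were compared by the difference between the log2 signals of both genes within each array. Map1lc3b minus Map1lc3a was 3.04, 3.11 and 3.21 in DKO, against 2.06, 2.12 and 2.15 in WT, so that the gap was wider by 1.01 in DKO. Every DKO array was beyond every WT array (two-sided exact permutation p = 0.1, the smallest that 3 samples against 3 can give, and 0.2 after adjustment over the 10 pairs). No pair could therefore pass a threshold of 0.05, and the shifts are given as a description. Foxo1 minus Foxo3 was -1.04, -1.11 and -0.89 in DKO, against -1.37, -1.63 and -1.45 in WT, a shift of 0.47 with the same exact p. Ulk2 minus Ulk1 was 0.85, 0.67 and 0.86 in DKO, against 0.59, 0.78 and 0.40 in WT. The DKO and WT values of that pair overlapped, with a shift of 0.20 (exact p = 0.2). Atg4c minus Atg4d shifted by 0.19 with overlap (exact p = 0.3), and Atg4c minus Atg4a by 0.43 without it (exact p = 0.1). The second Atg4a row had 7.32, 7.10 and 7.09 in DKO, against 7.18, 7.12 and 6.96 in WT. With that row in place of the chosen one, the groups of Atg4c minus Atg4a overlap. Shifts without overlap were also seen for Wipi1 minus Wipi2 (0.29) and Tfeb minus Tfe3 (0.16), and shifts with overlap for Gabarapl2 minus Gabarapl1 (0.40), Atg16l1 minus Atg16l2 (0.15) and Atg2b minus Atg2a (-0.031). All shifts are those of the chosen rows, so the limits given above for the rows of Atg4a, Gabarapl2 and Atg2b apply to their pairs.

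Calls were unequal along gene span, and 26 of the 39 autophagy genes were longer than the median of all genes. Of these 26, 6 rose and 0 fell in limma, beside 14.2% and 6.87% of all longer genes. Of the 13 shorter ones 1 rose and 1 fell, Map1lc3b and Map1lc3a, beside 5.32% and 8.54% of all shorter genes. The median difference was 0.17 for the longer and 0.070 for the shorter autophagy genes, and 0.085 and 0.063 with the trend removed. Among the called genes, removal moved Foxo1 to 0.67, Map1lc3b to 0.57, Rb1cc1 to 0.48, Atg4c to 0.37, Uvrag and Ulk2 to 0.24, Pik3c3 to 0.17 and Map1lc3a to -0.33. Foxo1, Map1lc3b, Rb1cc1 and Map1lc3a were past the threshold in that fit (adjusted p = 0.00235, 0.0037, 0.0147 and 0.0343). What underlies the trend over span was not tested.

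**Figure D3:**
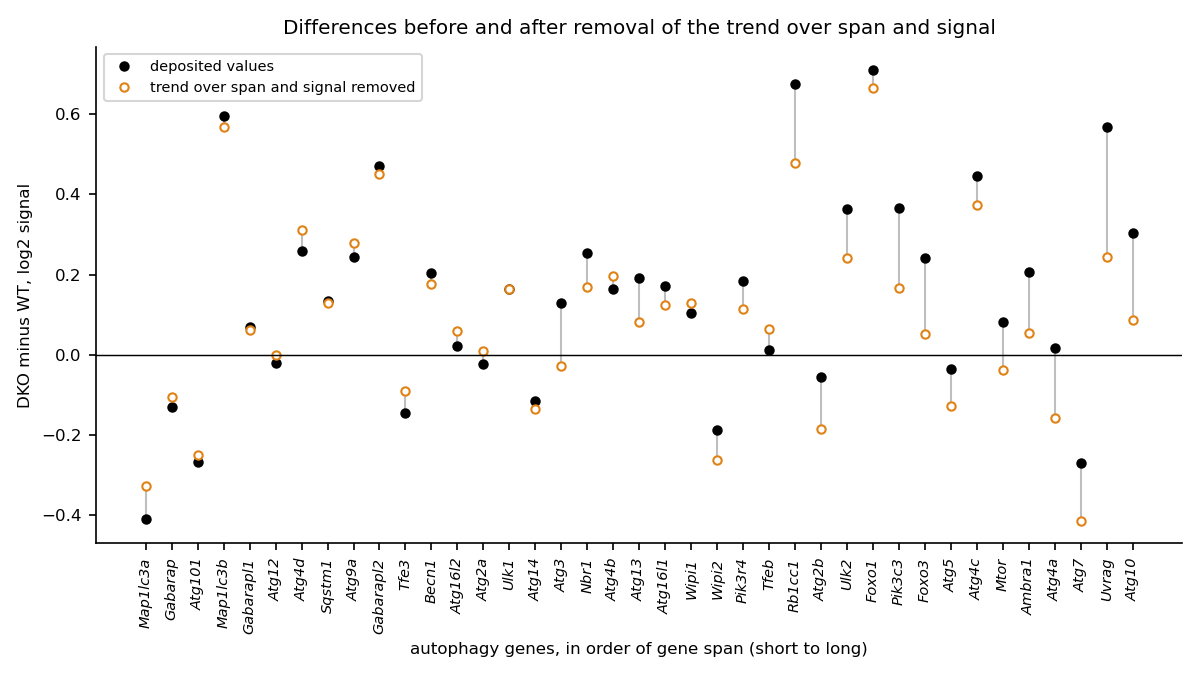
Differences between DKO and WT in log2 signal (vertical axis) for the 39 autophagy genes in order of gene span, from short on the left to long on the right, with filled points for the deposited values and open points after removal of the trend over span and signal. Uvrag is at 0.57 before and 0.24 after, and Foxo1 at 0.71 before and 0.67 after.

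**Figure D4:**
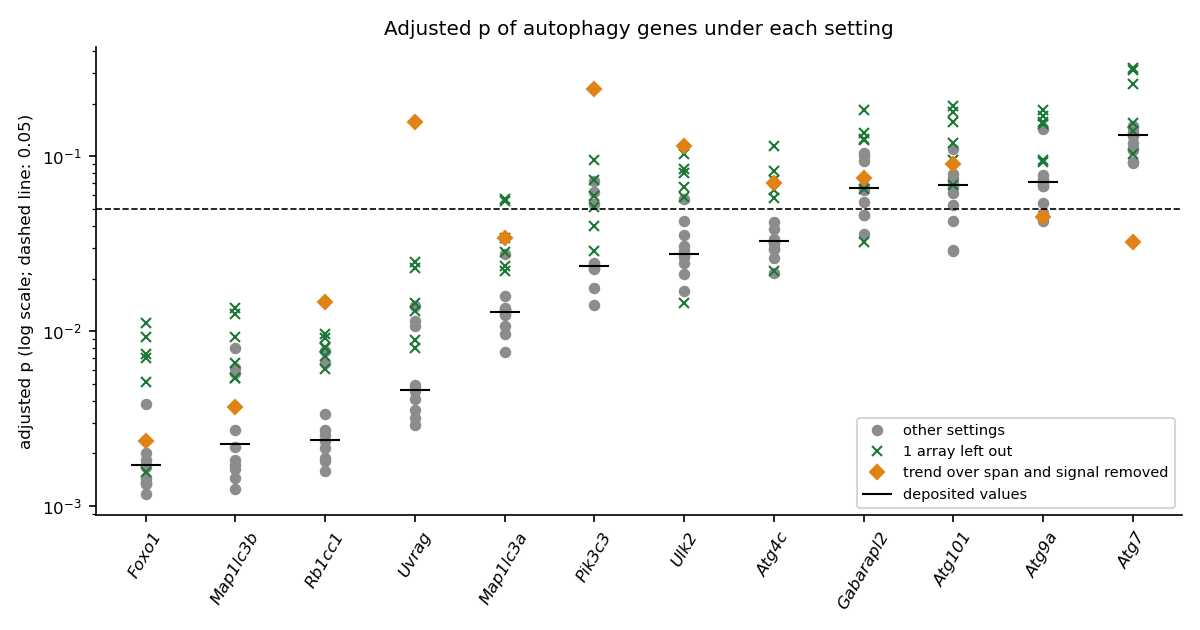
Adjusted p from limma on a log axis for the 8 called autophagy genes and the 4 others that passed under at least 1 alternative, with the deposited values as black bars, arrays left out as green crosses, the trend over span and signal removed as orange diamonds and other settings as grey points. Foxo1, Map1lc3b and Rb1cc1 stay below the dashed line at 0.05 throughout.

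Genes around the core machinery were given by 7 further lists with 100 measured genes of 105 listed, of which 12 rose, 10 fell and 78 did not pass, beside 9.71% and 7.69% of all genes. Their median difference was 0.038. With quantile normalisation 6 rose and 13 fell (7.73% and 8.98% of all genes), with cyclic loess 7 and 12 (8.61% and 7.38%), and with the trend removed 7 and 13 (7.49% and 7.62%). In the mTORC1, Rag and AMPK list (24 genes) 2 rose and 4 fell. Prkaa1, the catalytic alpha 1 subunit of the energy sensor AMPK, had 8.30, 8.25 and 8.16 in DKO, against 7.42, 7.65 and 7.62 in WT (0.67, limma adjusted p = 0.0016). Prkag2, an AMPK gamma subunit, had 7.00, 7.06 and 6.82 in DKO, against 7.62, 7.61 and 7.42 in WT (-0.59, limma adjusted p = 0.00409). Prkaa1 and Prkag2 were on opposite sides of WT, each with no overlap, and both calls held under each of 17 alternatives. The other AMPK subunits of the list did not pass, with overlapping groups and differences of -0.26 to 0.12. Akt1s1, which encodes the mTORC1 inhibitor PRAS40, fell by 0.50 (adjusted p = 0.00653), and Lamtor1, the lysosomal anchor of the Rag GTPases, by 0.79 (adjusted p = 0.014), a call lost without WT replicate 3 (0.0516). Deptor, another mTOR inhibitor, rose by 0.57, and Stk11, the AMPK kinase LKB1, fell by 0.48, both named after their values were seen.

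Selective autophagy genes (14 measured) gave 4 rises and 2 falls, beside 9.71% and 7.69% of all genes. Ncoa4, the receptor that brings ferritin to autophagosomes, had 9.66, 9.78 and 9.48 in DKO, against 8.81, 8.71 and 8.73 in WT. This 1.85-fold rise (0.89, SE 0.10, limma adjusted p = 0.000464) was larger than any among the 39 core genes and held under each of 17 alternatives. The probe set number of its row (10399198) lies between those of genes on chromosomes 11 and 12, whereas Ncoa4 is on chromosome 14. The same holds for the row of Bnip3l (10394800), also on chromosome 14. What else these rows may read was not checked. Tbk1, a kinase that phosphorylates cargo receptors, rose by 0.34 (adjusted p = 0.0232), and the call held in 9 of 17 alternatives. Sec62 and Wdfy3, named after their values were seen, rose by 0.31 and 0.37 (8 and 11 of 17), and a second Wdfy3 row was at 0.78. With the trend removed, Tbk1, Sec62 and Wdfy3 were at 0.19, 0.16 and 0.16 and did not pass. The mitophagy receptor genes Bnip3l and Phb2 fell by 0.42 and 0.50 (adjusted p = 0.0128 and 0.0064), where Bnip3l, known for clearing mitochondria from maturing red cells, missed without DKO replicate 3 (0.0558). Of the 3 measured erythroid markers, Car1 and Klf1 fell too and Epor did not pass, as given above, and the part of erythroid cells in the Bnip3l fall was not tested.

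Of 17 lysosomal membrane and hydrolase genes 2 rose and 1 fell. For this and the lists below, 9.71% of all genes were called higher and 7.69% lower. Lamp2, a lysosomal membrane protein needed for fusion with autophagosomes, had 9.34, 9.36 and 9.40 in DKO, against 8.32, 8.51 and 8.35 in WT. It rose 1.96-fold (0.97, SE 0.09, limma adjusted p = 0.000168), whereas Lamp1 had 8.23, 8.22 and 8.46 in DKO, against 8.25, 8.38 and 8.61 in WT, overlapping values (-0.11, adjusted p = 0.563). Npc1, a cholesterol exporter of lysosomes, rose by 0.47 (adjusted p = 0.0368), and Scarb2, a lysosomal membrane receptor, fell by 0.37 (0.0386), with the calls held in 9 and 12 of 17 alternatives. Of 16 vacuolar ATPase subunits, parts of the pump that acidifies lysosomes, 2 rose and 2 fell. Atp6v0a1 rose by 0.81 (limma adjusted p = 0.00078) and Atp6v1h by 0.35 (0.0246), while Atp6v1d fell by 0.35 (0.0204), with the calls held in 17, 11 and 14 of 17 alternatives. Atp6v1h was at 0.21 with the trend removed (adjusted p = 0.157). Atp6v0a2 was called lower at -0.31 (0.0477, held in 6 of 17 alternatives), but another of its rows was at 0.39, so its direction depends on the row. Among 13 other genes of autophagosome formation, Sh3glb1, which encodes a Beclin 1 partner, rose by 0.35 (0.0153, held in 11 of 17 alternatives and at 0.16 with the trend removed), and Bcl2, an inhibitor of apoptosis that also binds Beclin 1, had 7.19, 6.45 and 7.06 in DKO, against 9.02, 9.01 and 9.04 in WT (-2.12, limma adjusted p = 7.73e-05). Of 12 fusion genes Vps39, a HOPS tether subunit, alone passed (0.47, limma adjusted p = 0.0168, held in 13 of 17 alternatives and at 0.31 with the trend removed). The other MiT and FoxO factors Mitf, Tfec, Foxo4 and Foxo6 gave 0 calls in limma, and Mitf had an unadjusted p under 0.05 (-0.37, adjusted p = 0.113).

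**Figure D5:**
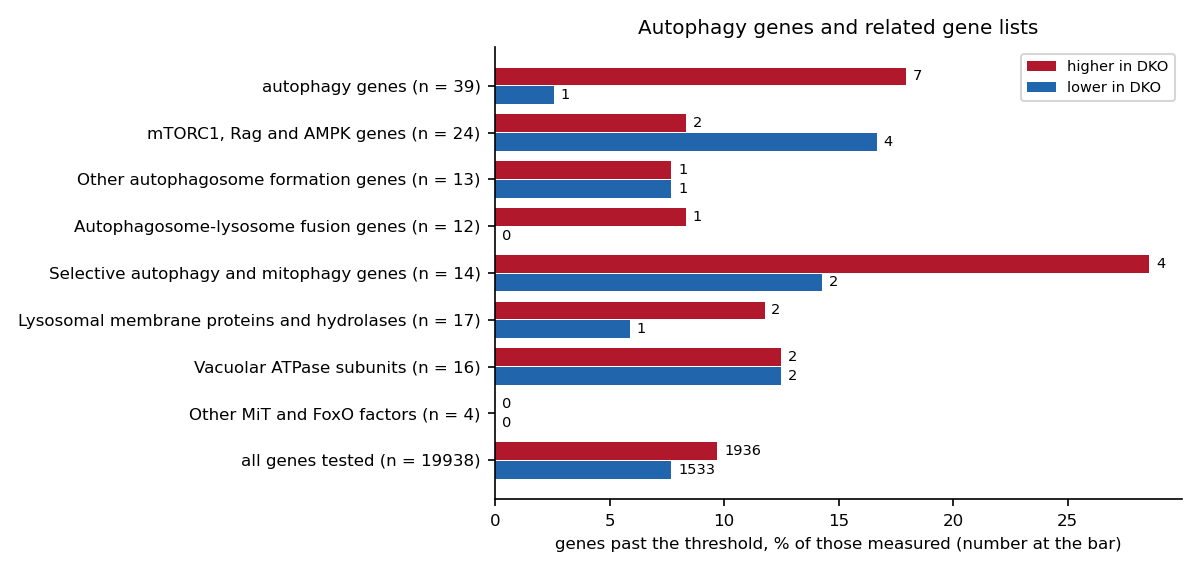
Share of measured genes past the threshold, in percent (horizontal axis), higher in DKO in red above and lower in DKO in blue below, for the autophagy genes, 7 related lists and all 19938 genes, with the number of genes at each bar. Of the autophagy genes 7 rose and 1 fell, and of the mTORC1, Rag and AMPK genes 2 rose and 4 fell.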

How the data were processed

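Amplification used NuGEN WT-Ovation Pico chemistry, as the labels' protocols state. The values the authors deposited are log2 signals with 1 value per probe set and array, already background-corrected and normalised between arrays if they are RMA values, as the sample titles say, although the design text names a preliminary MAS 5.0 step. The submitters' processing notes name Affymetrix Expression Console 1.0, and no build is stated there.

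Of 35556 rows, 21789 had exactly 1 gene symbol in the platform annotation, 1621 had several and 12146 had none. Per gene the row with the highest mean was kept, without a filter on low values. The 19938 genes were fitted with limma 3.58.1 in R 4.3.3 (lmFit and eBayes, two-sided, DKO minus WT), with 5.52 prior degrees of freedom, and 19856 of them were found in RefSeq for gene span and names. The fit was tested on simulated data. Alternatives changed the normalisation, the filter on dim genes, the choice of row, the limma settings, the threshold, a trend over gene span and signal, a replicate block, and left out each array in turn. The members and lists were chosen with earlier results of these data known. Among the related lists the text names at most 4 called genes per list, those with the smallest p, and states where a gene was added. Lamp1 was added after its values were seen. The labels call the samples biological replicates.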

Additional observations from a re-analysis of the deposited data

How the results depend on the processing

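Of the 8 autophagy genes called, Foxo1, Map1lc3b and Rb1cc1 passed under all 17 alternatives tried for a single gene, Uvrag under 16, Map1lc3a under 15, Atg4c under 11, Ulk2 under 10 and Pik3c3 under 9, each with its sign kept. The number of autophagy genes past the threshold was 8, was 11 without the dimmest 50% of genes and ran from 4 to 7 with 1 array left out. At a threshold of 0.01 it was 4, all 4 of them higher and 0 lower. The number higher was 7. It was 9 without the dimmest 50% of genes, 4 after removal of the trend over gene span and signal and 4 to 6 with 1 array left out. The number lower was 1, and 2 with quantile normalisation, cyclic loess, the dimmest 50% of genes left out, the trend removed or a threshold of 0.1, and 0 to 1 with 1 array left out. The median difference was 0.16, 0.083 with the trend removed and 0.11 to 0.17 with 1 array left out. In the 7 related lists 12 genes were higher, 6 with quantile normalisation, 7 with cyclic loess or the trend removed, 4 at a threshold of 0.01 (18 at 0.1) and 5 to 12 with 1 array left out. There were 10 lower, 4 at 0.01 and 6 to 11 with 1 array left out. Fits without an array have fewer samples. The replicate number as a block gave 6 higher and 1 lower among the autophagy genes, and among the related lists 10 higher and 9 lower. Deviations from the group means of same-numbered DKO and WT samples correlated at -0.0954 to -0.0087, and those of differently numbered samples at -0.0327 to 0.0746. The labels state no pairing, and such correlations cannot show whether same-numbered samples share a source.

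Signs of autophagy genes that passed in neither setting changed in these cases: Atg2a with cyclic loess (0.027) or the trend removed (0.011), Atg2b with the mean of its rows (0.12) or the more variable row (0.29), Atg3 with quantile normalisation (-0.0156) or the trend removed (-0.028), Atg4a with quantile normalisation (-0.033), cyclic loess (-0.022) or the trend removed (-0.16), Gabarapl1 with quantile normalisation (-0.021) or cyclic loess (-0.0157), and Mtor with the trend removed (-0.038). With 1 array left out, Atg2a ran from -0.10 to 0.016, Atg2b from -0.12 to 0.036, Atg5 from -0.16 to 0.057, Atg12 from -0.075 to 0.046, Atg16l2 from -0.033 to 0.082, Atg4a from -0.066 to 0.068, Gabarap from -0.24 to 0.011, Gabarapl1 from -0.079 to 0.16, Tfeb from -0.081 to 0.089 and Mtor from -0.051 to 0.17. Atp6v0a2 was at 0.043 with the mean of its rows and 0.39 with the more variable row, where another row was used. The cause of the other changes was not tested.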
